A study of Oryza sativa Indica Group and Oryza sativa Japonica Group with 12 samples.

Results

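Chromatin loops joined by H3K27me3 were compared between seedlings of 2 indica rice varieties, Zhenshan 97 (ZS97) and Minghui 63 (MH63). The comparison takes 4 of the 12 samples of the series, 2 labelled replicates per variety, chosen by the labels for cultivar and tissue. Each variety is represented by 1 loop list in which both replicates are pooled, so that 2 of the 6 deposited lists enter. The series also holds roots of both varieties, whose lists are set beside the seedling values below, and 2 lists of another background that were not used. The labels give no mutation, treatment, age or growth stage beyond the word seedling. All samples were cross-linked with 1% formaldehyde for 10 min and 1.5 mM EGS for 30 min, precipitated with the same H3K27me3 antibody, ligated through a biotinylated bridge linker and read as 150 bp paired ends. A whole seedling mixes cell types, so more cells with a contact and a stronger contact per cell cannot be told apart.

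H3K27me3 is a repressive histone mark that Polycomb repressive complex 2 places, in plants mostly over genes that are silent in the tissue at hand, and wide marked domains can gather in the nucleus. ChIA-PET measures such gathering: chromatin carrying the mark is precipitated, DNA ends held close together are ligated, and each ligation product is read as a paired-end tag (PET) that joins a pair of anchors. A loop is a pair of anchors joined by more PETs than the authors' thresholds required. A tag, in contrast, is a read end that falls in an anchor whatever its partner, and reports how much marked chromatin was recovered there.

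The ZS97 seedling list held 90390 loops with 484060 PETs between 9780 anchors, and the MH63 seedling list 86383 loops with 509524 PETs between 12002 anchors. Total tags, solved from the deposited p-values, were 51.2 M in ZS97 seedlings and 22.1 M in MH63 seedlings, and 13.4 M and 41.3 M in the roots. The ZS97 seedling list thus rests on more tags but fewer anchors, and the part of this gap in the differences below was not tested. Both lists use 1 coordinate system, whose genome build is not given in the sources used here. A difference in DNA sequence between the varieties and a difference in contacts therefore cannot be told apart at a region, and a missing loop means only that a pair did not pass the authors' thresholds. With 1 pooled list per variety there was no spread between replicates and no test could be made. Ranges in brackets are 95% intervals and cover no error other than counting.

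The loops of ZS97 seedlings ran between chromosomes more, and within chromosomes less, than those of MH63 seedlings. ZS97 had 204015 PETs between chromosomes and MH63 had 129522, which is 42.1% (42.0 to 42.3) and 25.4% (25.3 to 25.5) of their PETs. Within chromosomes the difference depended on the span of the loop. Under 20 kb, ZS97 had 54243 PETs and MH63 had 64773, a ratio of 0.837. The ratio fell with span, to 0.779 at 20 to 100 kb, 0.654 at 100 kb to 1 Mb and 0.436 (0.428 to 0.445) at 1 to 5 Mb, where ZS97 had 13299 PETs and MH63 had 30478. Beyond 5 Mb it turned, with 17365 PETs in ZS97 and 15995 in MH63, a ratio of 1.09 (1.06 to 1.11). Thus the loss in ZS97 was deepest at middle range, and the longest loops sided with those between chromosomes. These 6 ratios, and those of whole chromosomes below, are of PETs as deposited, without scaling. In roots the order within chromosomes was not the same: the lowest ratio, 0.480, lay at 100 kb to 1 Mb, and it was 0.713 at 1 to 5 Mb, 1.63 beyond 5 Mb and 1.60 between chromosomes.

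**Figure D1:**
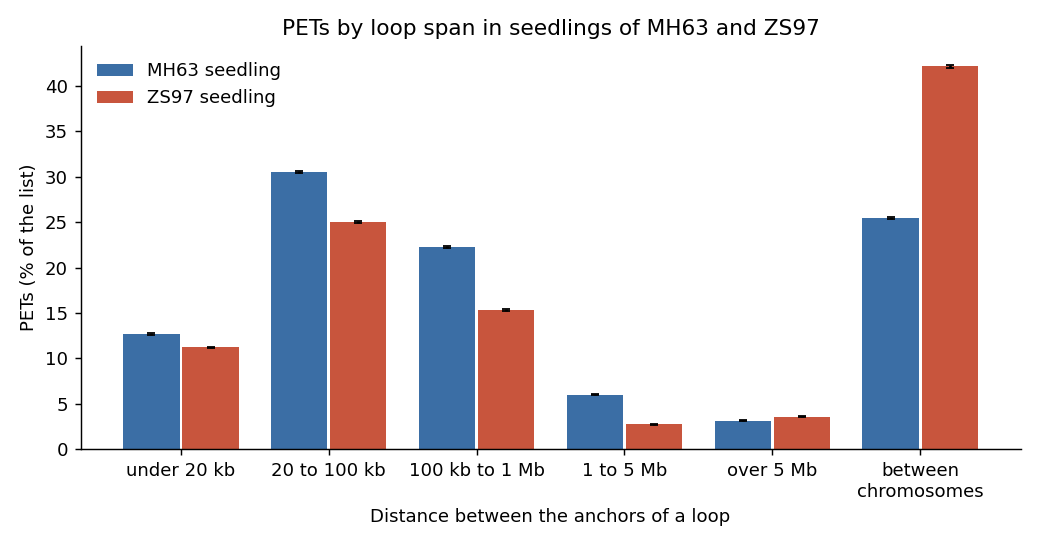
PETs of each seedling list by the span of their loop, as a percentage of all PETs of the list; blue bars are MH63, red bars ZS97, and error bars are 95% binomial intervals. MH63 has the larger share in every class up to 5 Mb, and ZS97 beyond 5 Mb and between chromosomes, the last at 42.1% against 25.4%.

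The chromosomes did not lose their internal loops evenly. Chromosome 12 stood lowest, with 18364 PETs within the chromosome in ZS97 against 35632 in MH63, a ratio of 0.515 (0.506 to 0.525). Chromosome 11 stood at 0.971 (0.958 to 0.984), with 43335 PETs against 44633, and chromosome 3 at 0.917. For spans of 100 kb to 5 Mb the ratio was 0.346 on chromosome 12 and 0.930 on chromosome 11. PETs to other chromosomes varied far less, from a ratio of 1.41 on chromosome 12 to 1.67 on chromosome 2. In roots most chromosomes had a lower within-chromosome ratio than in seedlings, such as chromosome 1 at 0.605 against 0.756. Chromosome 11 fell as well, to 0.645. Chromosome 12 was at 0.529, close to its seedling value, and chromosome 5 rose from 0.639 to 0.710. The lowest in roots was chromosome 7, at 0.514. Without scaling, a shift of the whole list enters each of these ratios.

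To find which regions differed, overlapping anchors of the seedling and root lists of both varieties were merged into 14152 regions. PETs of a region were scaled on the total PETs of the list, and a region was called where the varieties differed at least 2-fold, the interval of the ratio excluded 1 and both lists together gave at least 20 PETs. Of 7935 regions compared, 2307 (29.1%) were higher in ZS97 and 847 (10.7%) lower. The median region had a log2 ratio of 0.43. Scaled on total tags, the median moved to -0.86 and the calls to 726 higher and 3458 lower, so the balance of directions depends on the scaling, while the order of regions does not. Where a loop was listed in both varieties, 1908 regions were called towards ZS97 and 290 towards MH63, so most losses rest on regions that ZS97 does not list. Within chromosomes, each list scaled on its own within-chromosome PETs, 847 of 5143 regions were higher (16.5%) and 974 lower (18.9%). Between chromosomes, 1495 of 6874 were higher (21.7%) and 628 lower (9.14%). Of 4707 regions compared on both kinds of loop, 301 were higher on both and 268 lower on both, while 14 were higher within chromosomes and lower between them and 37 the reverse.

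Calls within chromosomes were spread unevenly. On chromosome 12, 34.5% of regions (29.5 to 39.8) were lower in ZS97, on chromosome 10 28.0% and on chromosome 11 26.6%, against 8.60% (6.35 to 11.3) on chromosome 3. Chromosome 11 also had many regions that were higher, 21.8%, so it carried changes both ways where chromosome 12 leaned one way.

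On all loops, the block with the strongest gain in ZS97, ranked by the bound of its interval nearest to 1, lay on chromosome 11, where a cluster of wide domains sits. Within chromosomes it came after a small block on chromosome 8 from 15 to 16 Mb, with 153 PETs in ZS97 and 38 in MH63, a scaled ratio of 5.57 (3.88 to 8.16). That small block rested on 1 region pair. In ZS97, 125 of its 153 PETs joined chr8:15230701-15234741 to chr8:15248638-15252209, with no listed loop in MH63 seedlings. The chromosome 11 block, from 18 to 19 Mb, held 17142 PETs in ZS97 and 6365 in MH63, a scaled ratio of 2.63 (2.55 to 2.71), and 14237 against 5044 within the chromosome, a ratio of 3.90 (3.78 to 4.03). A few domains carried it. The domain chr11:18829603-18900577 had 6269 PETs in ZS97 and 871 in MH63, a ratio of 7.58. Its neighbour chr11:18904375-18975740 had 5926 and 1891, and chr11:18789012-18811296 had 2172 and 388. The next wide domain to the left, chr11:18160349-18205940, had 1279 and 1143 PETs, a ratio of 1.18 (1.09 to 1.28) on all loops and 1.52 (1.39 to 1.67) within the chromosome, a smaller gain. The first pair of domains was joined to each other by 1443 PETs in ZS97 and 223 in MH63. Tags moved with the PETs: chr11:18829603-18900577 had 1809 tags per M total tags in ZS97 and 270 in MH63, and chr11:18904375-18975740 had 1843 and 531. Tags are counted only at anchors with a listed loop, and how far the recovery of marked chromatin sets the loops there was not tested. In roots the domains had 3394 and 3340 PETs and 3434 and 3306. The scaled root ratios were 1.32 (1.26 to 1.38) and 1.35 (1.28 to 1.41) on all loops, and 1.62 and 1.67 within the chromosome, so ZS97 was higher there too, by less. At both domains the root PETs lay between those of the seedlings, ZS97 above and MH63 below.

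Smaller anchors around these domains followed. The region chr11:19036783-19043072 had 550 PETs in ZS97 seedlings and 28 in MH63 seedlings, a ratio of 20.7 (14.2 to 31.4), with 46 in ZS97 roots and none listed in MH63 roots. Within the chromosome, chr11:18718065-18724332 had 294 PETs against 14 in seedlings and 352 against 116 in roots. In blocks, the run from 16 to 20 Mb was higher throughout for loops within the chromosome, with 28696 PETs in ZS97 and 15555 in MH63, a ratio of 2.55 (2.50 to 2.60) in seedlings and 1.52 in roots.

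The longest run of loss was on chromosome 12 from 11 to 18 Mb, where 7 blocks in a row were lower in ZS97 within the chromosome. They held 5224 PETs in ZS97 and 20143 in MH63, a scaled difference of 2.79-fold (2.71 to 2.88), and 1.80-fold in roots. The block at 13 to 14 Mb had 134 PETs within the chromosome in ZS97 and 2117 in MH63, 11.4-fold lower (9.59 to 13.7), and the next, at 14 to 15 Mb, had 137 and 1957, 10.3-fold lower. In roots these blocks were 5.64-fold and 2.34-fold lower. The leading domain, chr12:13620418-13667032, had 86 PETs in ZS97 seedlings and 1391 in MH63 seedlings, and 71 and 2327 in roots. It was low in both ZS97 tissues, at 13.2 tags per M in the ZS97 seedling against 726 in MH63. Beside it, chr12:13668210-13679056 had 294 PETs in MH63 seedlings and 573 in MH63 roots, and no listed loop in either ZS97 list.

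The domains further along this stretch kept more contact in ZS97 roots. At chr12:14052495-14086639 the seedling PETs were 166 in ZS97 and 1441 in MH63, and the root PETs 443 and 1235. At chr12:15262761-15284726 they were 53 and 972 in seedlings and 454 and 1209 in roots. At chr12:15308901-15329416 they were 8 and 299 in seedlings and 342 and 745 in roots. The last pair of regions was thus 17.4-fold (13.2 to 23.4) and 35.5-fold (17.8 to 83.0) lower in ZS97 seedlings, and 2.05-fold and 1.68-fold lower in ZS97 roots. Tags at anchors with a listed loop were low there as well in ZS97 seedlings, at 7.98 and 1.72 per M against 303 and 77.7 in MH63.

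Among the strongest MH63 pairs of the blocks at 13 to 15 Mb were loops to a wide domain at the end of the stretch, chr12:17578538-17728023. It was joined to chr12:13620418-13667032 by 247 PETs in MH63 seedlings and 54 in ZS97 seedlings, over 4010 kb. To chr12:14052495-14086639 it had 158 PETs in MH63 seedlings and no listed loop in ZS97 seedlings, and to chr12:14031065-14047986 it had 139 and none listed. To the far side, over 5373 kb, it had 350 PETs to chr12:22998397-23053799 in MH63 seedlings, none listed in ZS97 seedlings or MH63 roots, and 39 in ZS97 roots. The domain itself was not lost, with 3814 PETs in ZS97 and 7414 in MH63.

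Over the genome, 58 of 362 blocks with at least 100 PETs differed at least 1.5-fold towards ZS97 (16.0%) and 33 towards MH63 (9.12%). Within chromosomes 55 of 341 were higher (16.1%) and 62 lower (18.2%), and between chromosomes 18 of 362 were higher (4.97%) and 22 lower (6.08%). Chromosome 3 had 10 blocks higher and none lower on all loops, and chromosome 12 had 1 higher and 9 lower. Other runs that were higher lay on chromosome 1 from 27 to 30 Mb, with 4991 PETs in ZS97 and 2820 in MH63, and on chromosome 3 from 19 to 22 Mb, with 1245 and 621. Runs that were lower within the chromosome lay on chromosome 7 from 5 to 10 Mb, with 2195 and 5441 PETs, and on chromosome 1 from 11 to 16 Mb, with 961 and 3001. On chromosome 11 from 24 to 26 Mb ZS97 was 1.72-fold lower on all loops (1.67 to 1.78), with 6585 PETs against 11078, so chromosome 11 held a strong gain and, some Mb away, a run of loss.

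**Figure D2:**
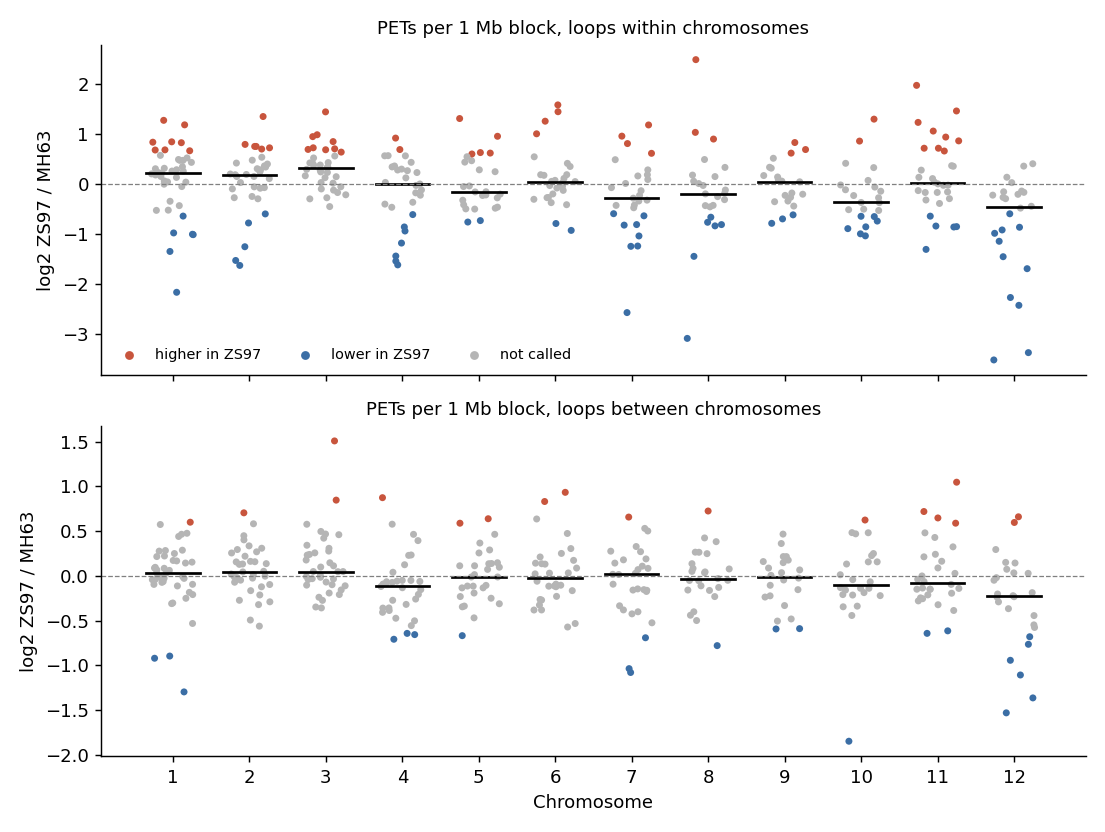
Each point is a 1 Mb block, placed by chromosome with random sideways jitter; the vertical axis is the log2 ratio of ZS97 to MH63 seedling PETs, scaled on the total of the panel, and black bars are chromosome medians. Red and blue points differ at least 1.5-fold; chromosome 12 has 11 blue and 0 red blocks within chromosomes, and chromosome 3 has 0 blue and 9 red.

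Single regions outside these stretches also differed strongly. Among regions listed in both varieties, the loss ranked highest by the interval bound nearest to 1 was at chr9:22018023-22043378, with 17 PETs in ZS97 and 627 in MH63, 35.0-fold lower (21.7 to 60.5). Its root PETs were 8 and 537, and its tags 9.23 and 290 per M in seedlings. At chr1:13466734-13488137 the seedling PETs were 17 and 278 and the root PETs 29 and 432. At chr7:17317294-17350004 they were 69 and 771 in seedlings and 38 and 754 in roots. In each of these 3 regions both ZS97 tissues were low and both MH63 tissues high. Within its chromosome, chr8:18636041-18671231 had 35 PETs in ZS97 and 914 in MH63 seedlings, and 164 and 1245 in roots. In chr12:16836725-16927996, part of the chromosome 12 run, PETs within the chromosome were 28 and 880 in seedlings and 1264 and 3544 in roots, a scaled difference of 23.2-fold (15.9 to 35.1) and 1.73-fold. On all loops its PETs were 175 and 1065 in seedlings, 5.78-fold lower in ZS97, and 1562 and 3633 in roots. On all loops again, chr11:24749932-24898321, a domain of 148 kb, had 193 PETs in ZS97 seedlings and 2188 in MH63 seedlings, while roots had 1197 and 5874.

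The regions named by the same rule for a gain were narrower, 1.03 to 12.2 kb on all loops. On chromosome 6, chr6:21890193-21898812 had 202 PETs in ZS97 and 4 in MH63, a ratio of 53.2 (20.4 to 197), and 94 in ZS97 roots with none listed in MH63 roots. Near it, chr6:21914220-21918898 had 167 and 6 PETs in seedlings and 85 and 10 in roots. On chromosome 8, chr8:15248638-15252209 had 182 and 7 PETs, and the loop from it to chr8:15230701-15234741, over 17.7 kb, had 125 PETs in ZS97 seedlings, 107 in ZS97 roots, 8 in MH63 roots and none listed in MH63 seedlings. The region chr11:9659423-9660450 had 118 and 2 PETs and was listed in neither root. Within their chromosomes, chr12:20689333-20708099 had 149 PETs in ZS97 and 2 in MH63 seedlings, and 339 and 53 in roots. At chr11:26744201-26745859 the seedlings had 123 and 2 and the ZS97 root 128, with none listed in the MH63 root. At chr5:24804430-24808714 they were 148 and 5 in seedlings and 90 and 58 in roots, so the root difference was smaller, at 2.52-fold scaled.

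Direction in roots was compared over all called regions. Of the regions higher in ZS97 seedlings that could be compared in roots, 28.5% were higher there too (448 of 1573), while 16.1% of all 9785 regions compared in roots were called so. The opposite call in roots was made for 139 of these 1573. Of those lower in seedlings, 53.9% were lower in roots (401 of 744), beside 21.8% of all, and 16 had the opposite call. The tissues share no list, but the regions were merged over both.

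Of the 10444 regions listed in seedlings, 7302 were listed in both varieties, 679 in ZS97 alone and 2463 in MH63 alone. The regions of 1 variety were mostly weak, with a median of 24 PETs in ZS97 and 8 in MH63, and they held 2.80% and 4.84% of each list's region PETs. With at least 100 PETs there were 43 in ZS97 and 79 in MH63. Of these, 40 of the 43 were listed in ZS97 roots and 12 in MH63 roots. Of the 79, 74 were listed in MH63 roots and 36 in ZS97 roots.

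These strong regions of a single variety were searched for a main partner on another chromosome. In 11 of the 43 ZS97 regions, at least 50% of the PETs ran to a single region on another chromosome. In MH63 this held for 0 of 79. Regions listed in both varieties were not searched, and some of them had such a partner in MH63 seedlings too. There chr11:21496647-21509825 had 125 of its 172 PETs to chr6:23054180-23102526, and chr5:9935249-9937479 had 60 of 74 to chr8:18636041-18671231. Among the 11, chr4:12178637-12186151 had 348 of its 462 PETs (75.3%, 71.1 to 79.2) to chr8:16855769-16867939, and no PETs within chromosome 4. In ZS97 roots the same pair had 216 PETs, and in MH63 roots none were listed. That partner had 625 PETs in ZS97 seedlings and 34 in MH63 seedlings, but 560 and 384 in the roots. The chromosome 4 region itself had 506 PETs in ZS97 roots and 72 in MH63 roots. The region chr3:21238916-21242836 sent 86.4% of 367 PETs to chr8:4784808-4847409, which had 997 PETs in ZS97 and 1334 in MH63 and so was well connected in both. The region chr5:7246227-7250293 sent 175 of 320 PETs to chr8:7085412-7117237. The regions chr5:27955168-27958380 and chr4:14185468-14188650 were each other's main partner, with 144 PETs between them. The region chr6:22917122-22922500 sent 194 of 234 PETs to the chromosome 2 hub described below, and had none within chromosome 6.

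The 11 regions were 1.04 to 7.51 kb wide, 5 of them had no PETs within their chromosome, and for 5 the partner lay on chromosome 8. For all 11 the pair with the main partner was listed in ZS97 roots, and for 1 in MH63 roots, with 12 PETs; the chromosome 4 and 5 pair counts here for both of its regions. Whether a piece of DNA lies elsewhere in the ZS97 genome than in the shared coordinates cannot be told apart from a contact here.

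Pairs of regions were then compared directly. Within chromosomes 8447 region pairs were listed in both seedling lists, which is 41.0% of the ZS97 pairs and 27.9% of the MH63 pairs, and they held 66.8% and 58.3% of the PETs. Between chromosomes 342 were shared, 0.529% of the ZS97 and 0.713% of the MH63 pairs. Among pairs of at least 10 PETs within chromosomes, 14.8% in ZS97 (651 of 4401) and 33.1% in MH63 (1974 of 5961) had no listed loop in the other variety. Between chromosomes this was 98.2% in ZS97 (1609 of 1638) and 97.7% in MH63 (553 of 566). Interchromosomal pairs of at least 10 PETs were thus almost never shared. Over interchromosomal pairs of any strength it was 99.5% and 99.3%. At 50 PETs or more it was 91.8% in ZS97 (67 of 73) and 1 of only 3 pairs in MH63. Few were shared between tissues of 1 variety either. Of the 1609, 119 were listed in ZS97 roots and 9 in MH63 roots. Of the 553, 13 were listed in MH63 roots and 17 in ZS97 roots. For 1539 of the 1609 and 533 of the 553 both regions were listed in the other variety, joined to other partners.

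Strong interchromosomal pairs were most numerous in the ZS97 seedling list, which also had the most total tags of the 4. At least 20 PETs joined 421 pairs in ZS97 seedlings, 77 in MH63 seedlings, 87 in ZS97 roots and 116 in MH63 roots. At least 100 PETs joined 13, 1, 3 and 1 pairs. Of the 410 ZS97 seedling pairs of at least 20 PETs that were absent from the MH63 seedling list, 57 were listed in ZS97 roots and 5 in MH63 roots. Of the 73 such MH63 pairs, 2 were listed in MH63 roots and 3 in ZS97 roots.

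**Figure D3:**
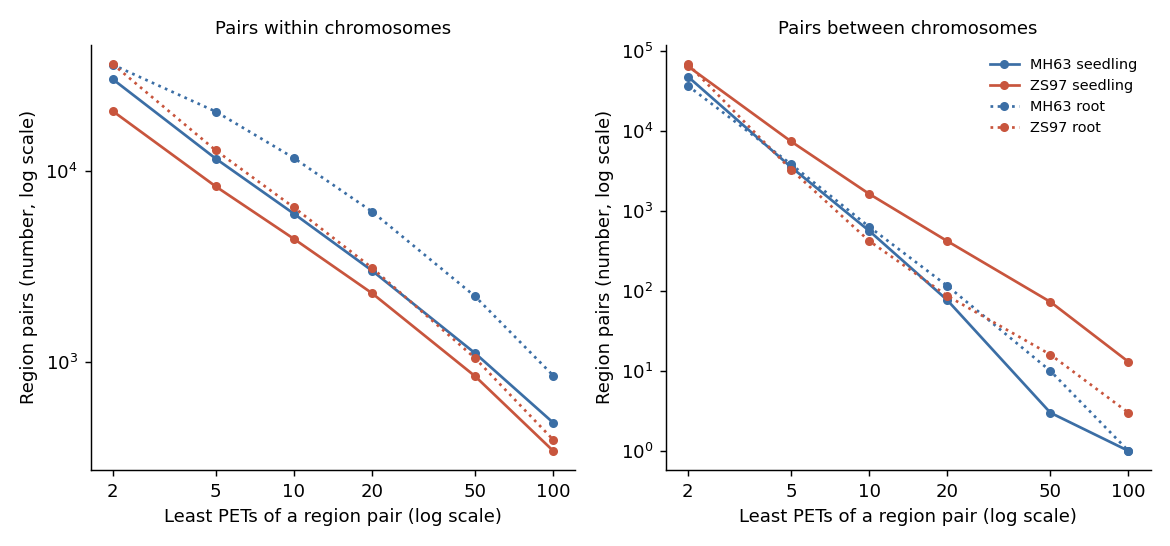
Number of region pairs with at least the PETs given on the horizontal axis, for pairs within chromosomes (left) and between chromosomes (right); both axes are logarithmic, solid lines are seedlings and dotted lines roots. Between chromosomes the ZS97 seedling line lies above the other lists from 5 PETs on, with 421 pairs of at least 20 PETs, and within chromosomes it lies lowest, with 2286.

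Of the interchromosomal pairs listed in both varieties, the strongest joined chr6:23054180-23102526 and chr11:21496647-21509825. It had 76 PETs in ZS97 and 125 in MH63 seedlings, and 120 and 107 in roots, so it was present in all 4 lists. The pair of chr5:9935249-9937479 and chr8:18636041-18671231 had 62 and 60 PETs in seedlings, and 17 and 76 in roots. Other shared pairs leaned to ZS97: chr9:12527504-12531134 with chr10:4200629-4217812 had 144 PETs in ZS97 and 3 in MH63. The strongest interchromosomal pair listed in MH63 seedlings alone, chr11:26226959-26244964 with the chromosome 12 domain, had 74 PETs and was in neither root list. By contrast, the 6 strongest pairs listed in ZS97 seedlings alone had 139 to 348 PETs, and all 6 were listed in ZS97 roots, with 57 to 216 PETs.

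Within chromosomes the strongest pairs of 1 variety were of another kind. In ZS97, chr8:18470307-18475081 and chr8:18485335-18532024 were joined by 255 PETs, and by 180 in ZS97 roots, with none listed in either MH63 list. The pair chr9:13751493-13806600 and chr9:13874089-13900144 had 217 PETs in ZS97 seedlings and none listed in MH63 seedlings, yet 171 and 203 PETs in the roots. In MH63, chr4:1899369-1923420 and its neighbour chr4:1924196-1950094 had 336 PETs in seedlings and none listed in ZS97 seedlings, with 282 and 248 in roots. These last 2 pairs were therefore missing from 1 list of 4.

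Hubs are the regions with the most partners, and 62 of the 100 leading hubs of each list were shared. Their partners differed in kind, as did the lists as a whole. In the median ZS97 hub 78.9% of the partners lay on other chromosomes, and in the median MH63 hub 62.1%. Over all region pairs, 64711 lay between and 20579 within chromosomes in ZS97, and 48003 and 30237 in MH63. The difference is therefore not particular to hubs. Among pairs of hubs on different chromosomes, 237 of 4508 were joined in ZS97 (5.26%) and 141 of 4507 in MH63 (3.13%), each list on its own hubs. The ZS97 hubs had 145 such joined pairs in the MH63 list, and the MH63 hubs 170 in the ZS97 list. Of the joined pairs 5 were common to both lists. Over all interchromosomal pairs the shared part was 0.529% in ZS97 and 0.713% in MH63. The chromosomes 11 and 8 held most ZS97 hubs, 16 and 13. MH63 had 16 on chromosome 11 and 14 on chromosome 12, where ZS97 had 7. Over all 7302 regions listed in both, 5704 had more partners on other chromosomes in ZS97 and 1310 fewer, and the medians were 13 and 7. Within the chromosome 2272 had more and 3878 fewer.

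The leading ZS97 hub was a domain of 196 kb on chromosome 2, chr2:16984222-17180348, with 336 partners in ZS97 and 219 in MH63. It had 58 partners within the chromosome in ZS97 against 105, and 278 on other chromosomes against 114. Its PETs within the chromosome were nevertheless higher in ZS97, 4366 against 3484, a scaled ratio of 1.70 (1.63 to 1.78). The chromosome 12 domain chr12:17578538-17728023 came next, with 330 partners in ZS97 and 236 in MH63. Here 59 against 135 lay within the chromosome and 271 against 101 outside, although its PETs were 3814 against 7414. The hub chr5:6148997-6274140 had 245 and 170 partners, 207 and 102 of them on other chromosomes. MH63 was led by chr1:4954220-5091484, with 293 partners against 232 in ZS97, of which 113 against 57 were within the chromosome and 180 against 175 outside. Within their chromosomes all of these hubs had fewer partners in ZS97 than in MH63.

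Some hubs with large differences lay in the blocks described above. The domain chr11:18829603-18900577 had 115 partners in ZS97 and 48 in MH63. Its counterpart was chr12:13620418-13667032, with 14 partners in ZS97 and 104 in MH63, and 12 and 67 in roots. At chr11:24749932-24898321 ZS97 seedlings had 52 partners and MH63 seedlings 151, and roots had 142 and 49. The region chr6:26188781-26197740 had 66 partners in MH63 seedlings, 20 in MH63 roots and no listed loop in either ZS97 list.

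**Figure D4:**
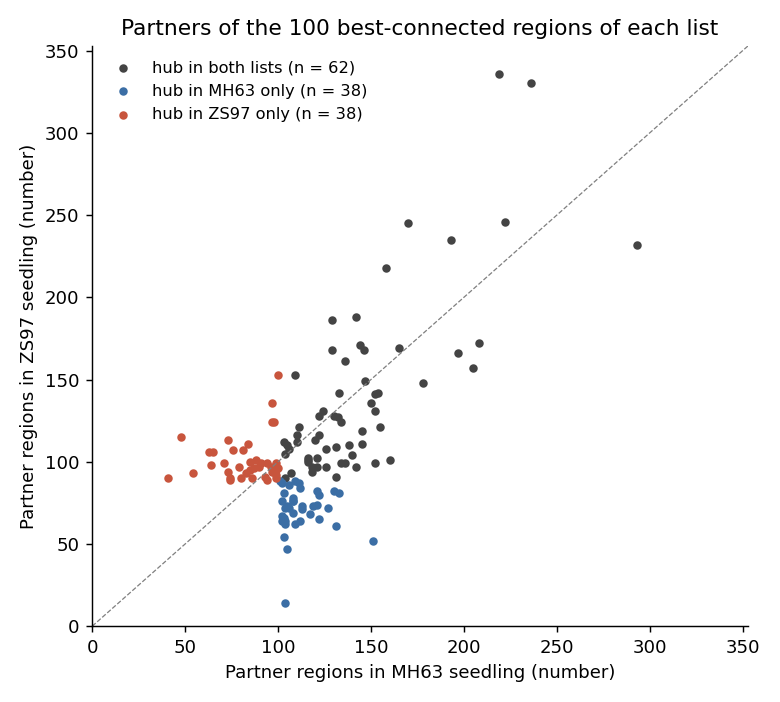
Partner regions in MH63 seedlings (horizontal) and ZS97 seedlings (vertical) for the 138 regions that are among the 100 best-connected of either list; grey points are hubs in both lists and the dashed line marks equal numbers. The chromosome 2 and chromosome 12 hubs lie far above the line, at 336 and 330 partners, and the MH63 hub with 14 partners in ZS97 is chr12:13620418-13667032.

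The larger share of PETs between chromosomes in ZS97 was spread over all chromosome pairs. Relative to the interchromosomal PETs of each list, 0 of 66 pairs passed 1.5-fold towards ZS97 (0%) and 0 towards MH63 (0%). The ratio of shares ran from 0.755 (0.712 to 0.800) for chromosomes 4 and 6, with 2492 PETs in ZS97 and 2096 in MH63, to 1.19 (1.12 to 1.26) for chromosomes 5 and 6, with 3184 and 1700. Chromosome 12 lagged: the interval lay below 1 for 8 of its 11 pairs and above 1 for 0, with chromosome 8 lowest at 0.764 (0.717 to 0.815). Over all 66 pairs 16 intervals lay below 1 and 18 above. In roots the ratio of chromosomes 8 and 12 was 0.795 and that of chromosomes 4 and 6 was 1.02. Against the number that the totals of both chromosomes would give, pairs had 0.872 to 1.19 times as many PETs in ZS97 and 0.866 to 1.11 times in MH63.

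PETs and tags of a region moved together. Tags are known only at anchors with a listed loop, so a region with fewer listed loops can show fewer tags for that reason alone. How much of the relation this sets was not tested. Over 6979 regions listed in both varieties with at least 20 PETs, the ZS97 over MH63 ratios of PETs and tags, on the log2 scale, correlated with r = 0.55 (Pearson) and rho = 0.48 (Spearman). This describes the lists only, since regions of a list share its library and depth. Over the 6114 regions that could be split, r with tags was 0.57 for PETs within chromosomes and 0.35 for PETs between them. Regions with fewer PETs in ZS97 had a median tag ratio of -1.67 on the log2 scale relative to the median region, and 9 of 290 were above it. Regions with more PETs had a median of 0.39, and 1350 of 1908 were above it. Regions that ZS97 does not list have no ZS97 tags and are not in these counts, which hold 290 of the 847 regions called lower.

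**Figure D5:**
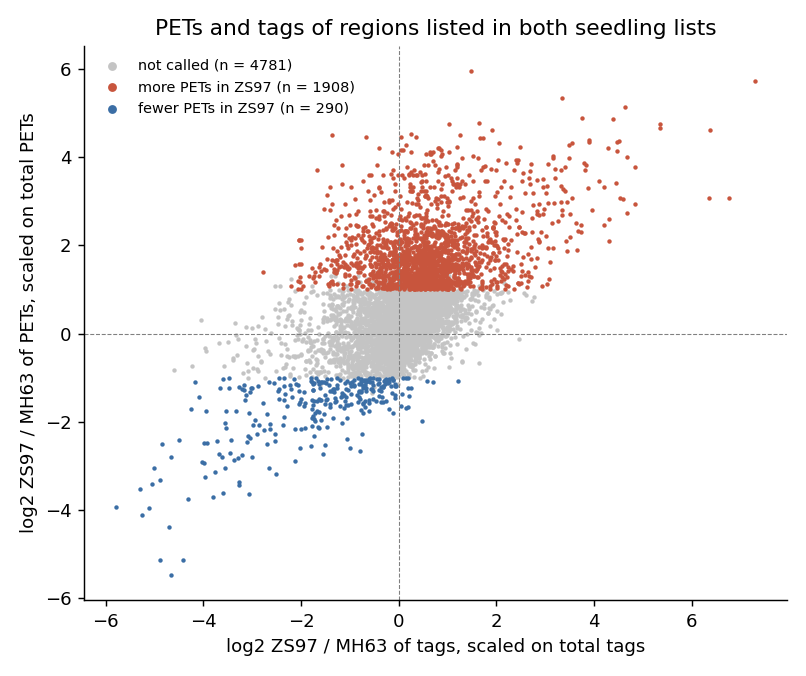
Each point is a region listed in both seedling lists; the horizontal axis is the log2 ratio of ZS97 to MH63 tags, scaled on total tags, and the vertical axis that of PETs, scaled on total PETs. Blue points, with fewer PETs in ZS97, lie to the left almost without exception (9 of 290 are above the median tag ratio), and red points spread to both sides.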

How the data were processed

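The authors deposited 1 loop list per group, with both replicates pooled, 15 columns and no header, and PETs as whole-number counts. The highest deposited p-value and false discovery rate were 0.00301 and 0.0499 in ZS97 seedlings, and 0.00706 and 0.0499 in MH63 seedlings. Aligner, caller and build were not given in the sources used here. Positions are printed 1-based. Ratios and shares of PETs carry exact Clopper-Pearson intervals. PETs are amplified molecules, so true errors are wider. A region with no listed loop entered calls with a floor of 3 PETs, and no fold is printed against it. A block collects loops with an anchor midpoint in it. Loops to an unplaced sequence (21 in ZS97, 28 in MH63) were left out of blocks and chromosome pairs. Total tags were solved, under a Poisson model, from the p-values of loops with 2 PETs whose anchors had more than 200 tags. Tags of a region are summed over its anchors with a listed loop in the text and, for the correlation, taken from the anchor among them with most tags. Named regions were those with the interval bound farthest from 1 or the most PETs, partners or blocks in a run. Regions, rules and lists were chosen with earlier results of these data known. The lists carry no gene names, so genes and sequences are not analysed here. Python 3.11.15, numpy 2.4.6, pandas 2.3.3, scipy 1.17.1 and matplotlib 3.10.9 were used.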

Additional observations from a re-analysis of the deposited data

Results flagged for a closer look

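Some named items went opposite ways in seedlings and roots. The difference was not tested, since each tissue has 1 list per variety. The block of chromosome 6 from 8 to 9 Mb had a scaled ratio of PETs between chromosomes of 1.78 (1.57 to 2.02) in seedlings and 0.883 (0.799 to 0.977) in roots. Chromosomes 10 and 11 had a ratio of shares of 1.18 (1.11 to 1.26) in seedlings and 0.919 (0.862 to 0.980) in roots. Among hubs, 5 had fewer partners in ZS97 seedlings and more in ZS97 roots than in MH63. The root difference was 252 partners at chr1:4954220-5091484 (308 against 56), 118 at chr11:19214911-19291355 (162 against 44), 54 at chr11:26110617-26204868 (134 against 80), 93 at chr11:24749932-24898321 (142 against 49) and 117 at chr12:16836725-16927996 (185 against 68). This holds for partners and not for PETs in general. Of these 5 hubs, only chr1:4954220-5091484 also turned in scaled PETs, with a ratio of 0.734 in seedlings and 3.24 in roots. At chr11:24749932-24898321 ZS97 was lower in PETs in both tissues, at 0.093 and 0.264, and at chr12:16836725-16927996 too, at 0.173 and 0.558. Each of the named hubs listed in both root lists apart from chr12:13620418-13667032 had more partners in ZS97 roots than in MH63 roots. The median region had 11 partners in both root lists, and the number of regions with over 50 partners was 987 in ZS97 roots and 61 in MH63 roots.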

How the results depend on the processing

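No paired analysis was possible because each list pools both replicates, and for the same reason no replicate could be left out. Scaling changed the balance most: on total tags 726 regions were higher and 3458 lower, and higher regions made up 17.4% of calls in place of 73.1%. Higher regions numbered 1106 at 50 PETs or more, 1435 at 3-fold and 1466 on loops of at least 3 PETs. Lower regions numbered 1411 at 10 PETs or more, 469 at 50 or more and 290 where listed in both. Within chromosomes, 607 regions listed in both were lower. With loops of at least 3 and 5 PETs, the share of PETs between chromosomes was 32.1% and 21.4% in ZS97 and 15.1% and 7.58% in MH63, and that of loops 59.2% and 40.5% in ZS97 and 37.2% and 19.4% in MH63. A common highest p-value gave 18.6% of PETs and 48.4% of loops in MH63, so the difference widened. Within chromosomes 18.2% of blocks were lower. Hubs were shared at 75% on loops of at least 3 PETs and 72% among the leading 50. The share of pairs listed in 1 variety only within chromosomes was 27.4% at 5 PETs, 9.71% at 20 PETs and 10.2% with loops within 10 kb counted as shared in ZS97, and 48.2%, 22.6% and 24.5% in MH63. Between chromosomes it was 97.4% at 20 PETs and 96.7% within 10 kb in ZS97, and 94.8% at 20 PETs in MH63. The Pearson r of PETs and tags was 0.68 over regions of at least 50 PETs. The cause of these moves was not tested beyond what fewer loops or regions set. The 33 named results rerun kept their call in all 125 alternatives. They are regions on all loops or within chromosomes, some entered on both, and blocks on all loops. For regions the outcome was built in for the scalings, since they were chosen as extreme. Blocks were rerun only on loops of at least 3 PETs and on loops within chromosomes. No block was rerun under another scaling, so whether the block gains hold on total tags was not tested. The block of chromosome 3 from 20 to 21 Mb had too few PETs for any alternative. Blocks named within or between chromosomes were not rerun.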
